A study of Mus musculus with 6 samples.

Results

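The 34 genes described here encode proteins that a neutrophil lays down in its granules or makes as it matures, and they were taken by name, from the primary granule proteases through the secondary and tertiary granule proteins to the surface receptors of the late cell. All 34 were found among the 55450 genes counted in each library and among the 17500 genes of the series table, and all 34 passed the filter on low counts. The study measured RNA from long-term hematopoietic stem cells (LT-HSCs), the rare marrow cells that can rebuild all blood lineages. The cells came from male C57/Bl6 mice of WT genotype, aged 22 to 24 months, and were sorted as Lin-, Sca1+, cKit+, CD48- and CD150+. CD61 is integrin beta 3; a CD61High library was made from 5000 cells of the top 10% of this population for CD61 and a CD61Low library from 5000 cells of the bottom 10%. There are 3 libraries of each, and no other treatment or allele is named for either group. The titles name 1 mouse for each pair of libraries while the protocol speaks of pools, so the mouse numbers are taken as 3 animals. P-values of the gate test without a mouse term measure the spread between animals within a group. In fits with both gate and mouse, they measure the scatter left after both terms. With 1 library per mouse and gate, a difference between mice cannot be told apart from one between sorts or library preparations. The comparison asks how the RNA of LT-HSCs with high surface CD61 differs from that of LT-HSCs with low surface CD61 in old animals.

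Neutrophils are made in the marrow from myeloid progenitors, and each step of their maturation has its own set of proteins. Promyelocytes fill primary (azurophil) granules with myeloperoxidase and serine proteases; myelocytes and metamyelocytes fill secondary (specific) granules with lactoferrin, cathelicidin and lipocalin; band cells and mature cells make tertiary (gelatinase) granules and the receptors that let them leave the marrow. Transcription factors of the C/EBP family, PU.1 and RUNX1 are known to act at many of these promoters, and C/EBP epsilon at those of the secondary granule genes. A sort for lineage-negative LT-HSCs is meant to leave neutrophils and their precursors out.

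The promoters of 2 primary granule genes, 1 secondary granule gene and 1 cytosolic gene are shown, and none of a tertiary or late gene. Of the genes with reads in every library, Elane and Mpo had the widest ranges, and Ngp and S100a8 were among the most abundant. The sequences are from RefSeq on GRCm38.p6 and run from 250 bases before the annotated start to 50 bases after it. All 4 are on the plus strand, at chr10:79886062-79886361 (Elane), chr11:87793534-87793833 (Mpo), chr9:110419558-110419857 (Ngp) and chr3:90668821-90669120 (S100a8). Capitals mark matches to a C/EBP motif (TTGCNNAA), a PU.1 motif (GAGGAAGT) or a RUNX motif (TGTGGT), searched on both strands.
Elane: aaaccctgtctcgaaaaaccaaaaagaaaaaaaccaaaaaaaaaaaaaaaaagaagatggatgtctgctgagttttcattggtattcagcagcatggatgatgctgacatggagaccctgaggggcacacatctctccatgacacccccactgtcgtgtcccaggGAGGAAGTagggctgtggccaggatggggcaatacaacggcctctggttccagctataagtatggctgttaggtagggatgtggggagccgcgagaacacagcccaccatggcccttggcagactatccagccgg
Mpo: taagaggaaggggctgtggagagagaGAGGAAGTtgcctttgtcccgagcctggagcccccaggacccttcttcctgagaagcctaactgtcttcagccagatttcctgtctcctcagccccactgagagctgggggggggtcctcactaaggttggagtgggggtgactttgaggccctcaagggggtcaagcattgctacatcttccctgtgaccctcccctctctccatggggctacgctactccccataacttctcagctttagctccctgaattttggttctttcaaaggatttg
Ngp: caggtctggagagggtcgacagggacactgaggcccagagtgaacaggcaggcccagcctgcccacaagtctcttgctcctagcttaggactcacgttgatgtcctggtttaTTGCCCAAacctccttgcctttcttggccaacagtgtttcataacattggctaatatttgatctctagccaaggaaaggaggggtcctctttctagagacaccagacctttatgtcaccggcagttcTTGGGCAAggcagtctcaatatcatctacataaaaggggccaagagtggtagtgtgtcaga
S100a8: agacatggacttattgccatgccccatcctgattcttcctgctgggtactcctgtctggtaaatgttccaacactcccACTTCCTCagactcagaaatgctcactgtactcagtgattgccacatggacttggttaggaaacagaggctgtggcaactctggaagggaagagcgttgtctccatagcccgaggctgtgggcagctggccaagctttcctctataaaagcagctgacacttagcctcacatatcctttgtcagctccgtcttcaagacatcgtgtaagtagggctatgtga

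The match in Elane is the PU.1 motif at position -85 from the start, that in Mpo the PU.1 motif at -224 and that in S100a8 the PU.1 motif at -172. Ngp holds 2 C/EBP matches, at -138 and -11, and no matches overlap in these 4 windows. RefSeq promoters were matched for 29 of the 34 genes; Cebpe, Hp, Mmp9, Wfdc21 and Serpinb1a were not matched. The C/EBP motif was found in 11 of the 29 (37.9%), against 10.3% of all 20595 promoters of the same length. The PU.1 motif was found in 7 of the 29 (24.1%), against 3.17% of all promoters, and the RUNX motif in 8 (27.6%), against 15.8%. Of the secondary granule genes, Ltf, Lcn2 and Ngp held the C/EBP motif. Of the primary granule genes, Mpo, Elane and Prtn3 held the PU.1 motif, Ctsg the RUNX motif and none the C/EBP motif. A match is a description of the letters and not evidence of a bound site.

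The 6 libraries had between 21354130 and 26398090 counts on genes. Levels are given as CPM, the counts of a gene relative to its library's total after edgeR's TMM scaling, and triplets of values are in the order of mice 1, 2 and 3. Levels of different genes are compared only after division by exon length (RPKM, or reads per kilobase of exon scaled like CPM). All 12 HSC markers, such as Hlf, Mecom and Procr, were detected in every library, and their summed level was 4796, 2713 and 5239 CPM in CD61High and 6466, 2114 and 6783 CPM in CD61Low. This sum was lowest in the 2 libraries of mouse 2. The gate test called 0 of the 12, beside 0% of all genes. In the model with a term for the mouse it called 2 of the 12 as lower in CD61High, beside 0.16% of all genes.

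The 34 genes differed in level between the mice. Together they took 0.818, 9.26 and 0.142% of gene counts in CD61High and 2.87, 14.7 and 0.361% in CD61Low. For 29 of the 34, both libraries of mouse 2 were above both of mouse 1, and these were above both of mouse 3; 7.67% of all 15610 genes tested had this order. The exceptions were Prtn3, Padi4, Csf3r, Hk3 and Serpinb1a. In edgeR's quasi-likelihood test of the mouse, with the gate in the model, all 34 differed between mice, with adjusted p from 0.000535 to 0.0350. In that test 16.8% of all genes were called, at an adjusted p under 0.05. Without the gate in the model it called 10 of the 34 and 608 of the 15610 genes. The log2 level in mouse 2 minus that in mouse 3 ran from 0.93 (Padi4) to 8.60 (Ctsg), with a median of 7.36 beside -0.08 over all genes.

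Within each mouse, the CD61High library held less of these transcripts than the CD61Low library. This was so in 3 of 3 mice for 33 of the 34 genes, all but Serpinb1a, and for 24.7% of all genes tested. Most of the 34 rose and fell together over the libraries, so counts of them, here and below, are not counts of independent results. The median log2 difference of the 34 genes, CD61High minus CD61Low, was -1.93, -0.85 and -2.29 in mice 1, 2 and 3, beside 0.00, -0.07 and -0.01 over all genes. With library sizes in place of TMM factors, 33 of the 34 were again lower in 3 of 3 mice; the all-gene median of mouse 2 was then 0.21 and that of the 34 genes -0.58. The 2 groups of 3 libraries overlapped for 34 of the 34 genes. The test of the gate without a mouse term called 0 of the 34 and 0% of all genes. At an unadjusted p under 0.05 it had 0 of the 34 and 1023 of all genes; DESeq2 called 0 of the 34 and 237 genes in all.

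With the mouse added to edgeR's model as a block, the test called 0.256% of genes in either direction and 0.16% as lower in CD61High. Among the 34 there were 2 such genes, Ms4a3 and Pglyrp1, both lower in CD61High. At an unadjusted p under 0.05 the blocked fit had 31 of the 34 lower in CD61High, beside 12.8% of all genes. Without mouse 2, the mouse with the most neutrophil transcripts, the blocked fit called 23 of the 34 as lower, beside 2.93% of 15548 genes tested. Calls without mouse 2, here and below, rest on mice 1 and 3 alone. Without mouse 1 the blocked fit called 0 of the 34 and 0 of 15967 genes tested. Without mouse 3 it called 0 of the 34 and 7 of 16106 genes tested. The median log2 fold change of the 34 was -0.95 without the block and -1.72 with it, beside -0.05 and -0.02 over all genes. Without the block it rested on mouse 2, at -4.26 without the CD61High library of that mouse and 1.33 without its CD61Low library. With library sizes alone in place of TMM factors the blocked fit called 0 of the 34 and 0 of all genes. In these bulk samples, fewer cells of a type and less RNA per cell cannot be told apart. The summed markers of other mature cells, described at the end, were highest in the same mouse, and their part in these values was not tested.

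**Figure D1:**
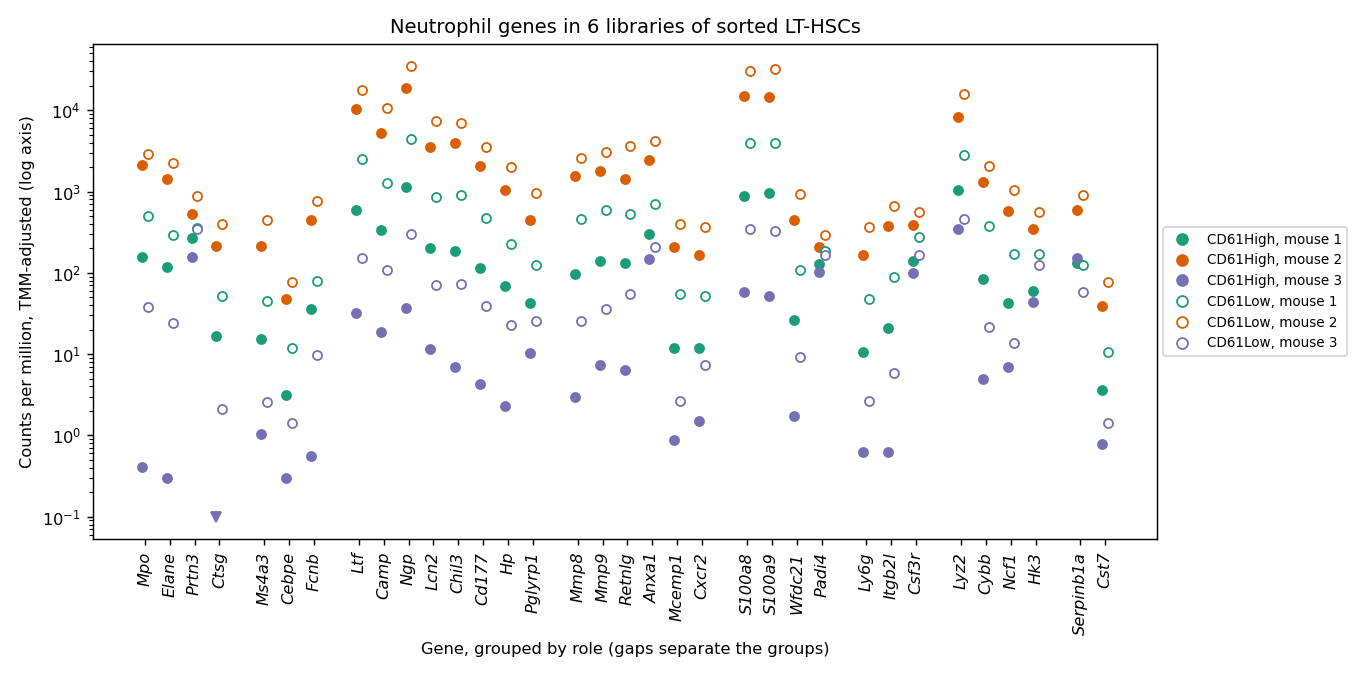
TMM-adjusted CPM on a log axis (y) of the 34 genes, grouped by role (x), with 1 point for each of the 6 libraries; the triangle marks a count of 0, drawn at 0.1 CPM. For 29 of the 34 genes the 2 libraries of mouse 2 lie above those of mouse 1 and these above those of mouse 3, with Padi4, Prtn3 and Csf3r spread over the narrowest range.

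The primary granule genes were among the most variable. Mpo encodes myeloperoxidase, the enzyme that makes hypochlorous acid (ENSMUSG00000009350.13, chromosome 11, 87793581 to 87804413 on GRCm38). Its level was 156, 2120.3 and 0.406 CPM in CD61High and 506, 2884 and 37.9 CPM in CD61Low. Both libraries of mouse 2 were the highest, CD61High of mouse 3 stood alone near 0 with 11 reads, and the groups overlapped. Elane, which encodes neutrophil elastase (ENSMUSG00000020125.7, chromosome 10, 79886247 to 79888215), had 118, 1409.9 and 0.295 CPM in CD61High and 288, 2232 and 24.2 CPM in CD61Low. Its libraries had the same order as those of Mpo, and CD61High of mouse 3 held 8 reads. Ctsg, which encodes cathepsin G (ENSMUSG00000040314.2, chromosome 14, 56099881 to 56102574), had 16.8, 215 and 0 CPM in CD61High and 52.1, 395 and 2.09 CPM in CD61Low. In CD61High of mouse 3 it had 0 counts, which allows up to 3 counts or 0.111 CPM (counting error only), so its level was at least 18.8-fold higher in CD61Low of that mouse.

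Prtn3, which encodes proteinase 3 (ENSMUSG00000057729.12, chromosome 10, 79874476 to 79883174), lies beside Elane on chromosome 10 and did not share this range. It had 266, 522 and 157 CPM in CD61High and 356, 869 and 348 CPM in CD61Low. Mouse 2 was again the highest, but CD61High of mouse 3 still held 4240 reads. Highest and lowest libraries differed 5.55-fold for Prtn3 and 7557-fold for Elane. Prtn3 shares 9.18% of its exon sequence with Plppr3, whose level was 125, 87.7 and 126 CPM in CD61High and 182, 85.7 and 220.3 CPM in CD61Low. Reads over exons of both genes count as ambiguous and stayed out, while RPKM divides by the whole exon length. The effect of this on the Prtn3 value was not tested. Mpo shares 15.0% of its exon sequence with Gm11505, which had at most 1 read in a library. In edgeR with the mouse as a block, the log2 fold changes of the gate were -2.24 (SE 1.04, adjusted p = 0.294) for Mpo, -2.03 (SE 0.94, adjusted p = 0.290) for Elane, -1.67 (SE 0.57, adjusted p = 0.191) for Ctsg and -0.77 (SE 0.17, adjusted p = 0.0875) for Prtn3. None of the 4 was called with or without the block. The mouse test called all 4, at adjusted p of 0.0350, 0.0267, 0.00524 and 0.00988.

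Of the early neutrophil genes, Ms4a3, a membrane protein gene of granulocyte-monocyte progenitors (ENSMUSG00000024681.11, chromosome 19, 11629496 to 11640851), had 15.4, 211 and 1.03 CPM in CD61High and 45.1, 441 and 2.57 CPM in CD61Low. Mouse 2 was far above the others in both gates, and within each mouse CD61High was the lower, with log2 differences of -1.54, -1.06 and -1.25. Ms4a3 fell in CD61High in the blocked fit, with a log2 fold change of -1.30 (SE 0.16, adjusted p = 0.0464). Without the block it was -1.10 (SE 2.09, adjusted p = 0.940), and without mouse 2 the blocked value was -1.47 (adjusted p = 0.0352). The blocked fit did not call Ms4a3 without mouse 1 (adjusted p = 0.321) or without mouse 3 (adjusted p = 0.146). Cebpe, which encodes the C/EBP factor needed for secondary granules, had 3.10, 47.4 and 0.295 CPM in CD61High and 11.7, 76.2 and 1.41 CPM in CD61Low, with 8 reads in CD61High of mouse 3. Its log2 fold change with the block was -1.44 (SE 0.32, adjusted p = 0.0868) and was called only without mouse 2, at -2.06 (adjusted p = 0.0467). Fcnb, which encodes ficolin B, had 36.2, 441 and 0.554 CPM in CD61High and 79.7, 755 and 9.68 CPM in CD61Low. It showed the same order of mice, and the lowest library, CD61High of mouse 3, held 15 reads. Its log2 fold change with the block was -1.64 (SE 0.57, adjusted p = 0.197). The 3 genes were called between mice, at adjusted p of 0.000535, 0.000951 and 0.00717.

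The 8 secondary granule genes took 0.292, 4.20 and 0.0133% of gene counts in CD61High and 1.16, 6.41 and 0.0881% in CD61Low. Per kilobase, their sum was below that of the cytosolic and secreted genes in all 6 libraries. Ngp encodes neutrophilic granule protein (ENSMUSG00000032484.8, chromosome 9, 110419747 to 110423012). Its level was 1135, 18844 and 37.2 CPM in CD61High and 4422, 34532 and 304 CPM in CD61Low. The mean was 6672 ± 10556 CPM in CD61High and 13086 ± 18686 CPM in CD61Low (SD, n = 3 in each), with an SD above the mean in both groups and mouse 2 far above the others. The differences within mice were -1.96, -0.87 and -3.03 on the log2 scale, and the log2 fold change was -0.97 (SE 2.16, adjusted p = 0.943) without the block and -1.95 (SE 0.43, adjusted p = 0.0898) with it. Without mouse 2 the blocked fit called Ngp at -2.50 (adjusted p = 0.0249).

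Ltf, which encodes the iron-binding protein lactoferrin (ENSMUSG00000032496.7, chromosome 9, 111019271 to 111042767), had 598, 10377 and 31.8 CPM in CD61High and 2526, 17836 and 153 CPM in CD61Low. Camp, which encodes the antimicrobial peptide precursor cathelicidin (ENSMUSG00000038357.10, chromosome 9, 109847379 to 109849617), had 338, 5199.6 and 18.5 CPM in CD61High and 1266, 10567 and 109 CPM in CD61Low. Chil3, which encodes the chitinase-like protein Ym1, had 183, 3940.0 and 7.02 CPM in CD61High and 894, 6996 and 71.8 CPM in CD61Low. All 3 had their 2 highest libraries in mouse 2 and the lowest in CD61High of mouse 3, with CD61High below CD61Low in each mouse. Their blocked log2 fold changes were -1.71 (SE 0.33, adjusted p = 0.0737), -1.82 (SE 0.31, adjusted p = 0.0648) and -2.14 (SE 0.49, adjusted p = 0.101). The other 4 were Lcn2 (lipocalin 2, which binds siderophores), Cd177 (a surface protein of the granule membrane), Hp (haptoglobin) and Pglyrp1 (a peptidoglycan recognition protein). Pglyrp1 had 42.2, 447 and 10.3 CPM in CD61High and 123, 964 and 25.2 CPM in CD61Low, and its range over libraries was the narrowest of the 8, at 93.9-fold. Pglyrp1 fell in CD61High in the blocked fit, with a log2 fold change of -1.32 (SE 0.14, adjusted p = 0.0436). Without the block it was -1.16 (SE 1.69, adjusted p = 0.940). The blocked fit did not call Pglyrp1 without mouse 1 or without mouse 3. Of the 8 genes, 7 were called as lower in the blocked fit without mouse 2, all but Hp, and all 8 between mice, at adjusted p from 0.000535 to 0.00370.

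Of the 6 tertiary granule and late genes, Anxa1 encodes annexin A1, a phospholipid-binding protein made in many cell types. Its level was 301, 2417 and 146 CPM in CD61High and 703, 4165 and 206 CPM in CD61Low. Mouse 2 was the highest, yet CD61High of mouse 3 still held 3957 reads, and the range over libraries was 28.5-fold. Retnlg, which encodes a resistin-like protein of neutrophils, had 132, 1439.8 and 6.39 CPM in CD61High and 531, 3616 and 54.5 CPM in CD61Low. Mmp9, which encodes gelatinase B, had 138, 1781 and 7.24 CPM in CD61High and 589, 3053 and 36.2 CPM in CD61Low. Cxcr2, the chemokine receptor that draws mature neutrophils into blood, had 12.004, 164 and 1.51 CPM in CD61High and 52.4, 364 and 7.41 CPM in CD61Low. In these 3 genes mouse 2 was again above mouse 1 and mouse 1 above mouse 3, and the lowest library was CD61High of mouse 3. The blocked log2 fold changes were -0.83 (SE 0.19, adjusted p = 0.0878) for Anxa1, -2.11 (SE 0.35, adjusted p = 0.0657) for Retnlg, -1.72 (SE 0.33, adjusted p = 0.0767) for Mmp9 and -1.80 (SE 0.25, adjusted p = 0.0512) for Cxcr2. Mmp8, a collagenase, and Mcemp1, a membrane protein, ran from 2.95 to 2567 CPM and from 0.886 to 401 CPM. None of the 6 was called with the block over all libraries; 5 were called as lower without mouse 2, all but Anxa1, and all 6 between mice.

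S100a8 and S100a9 encode the subunits of calprotectin, the abundant calcium- and zinc-binding protein of neutrophil cytosol, and lie close to each other on chromosome 3. S100a8 (ENSMUSG00000056054.9, chromosome 3, 90668978 to 90670035) had 890.1, 14789.7 and 57.9 CPM in CD61High and 4006, 30767 and 350.2 CPM in CD61Low. S100a9 (ENSMUSG00000056071.12, chromosome 3, 90692632 to 90695721) had 963, 14666 and 51.1 CPM in CD61High and 3922, 32387 and 328 CPM in CD61Low. Both had the order of mice seen for Ngp, and CD61Low of mouse 2 was the highest library for each. Their blocked log2 fold changes were -1.94 (SE 0.34, adjusted p = 0.0648) and -1.95 (SE 0.33, adjusted p = 0.0627), and both were called without mouse 2, at -2.40 (adjusted p = 0.0160) and -2.37 (adjusted p = 0.0162). Wfdc21, a small secreted protein, ran from 1.74 to 935 CPM. Padi4, the enzyme that converts arginine to citrulline in histones, behaved otherwise, at 128, 207 and 102 CPM in CD61High and 184, 292 and 165 CPM in CD61Low. Its highest and lowest libraries differed 2.87-fold, the least of the 34 genes. None of the 4 was called with the block, and all 4 were called as lower without mouse 2.

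**Figure D2:**
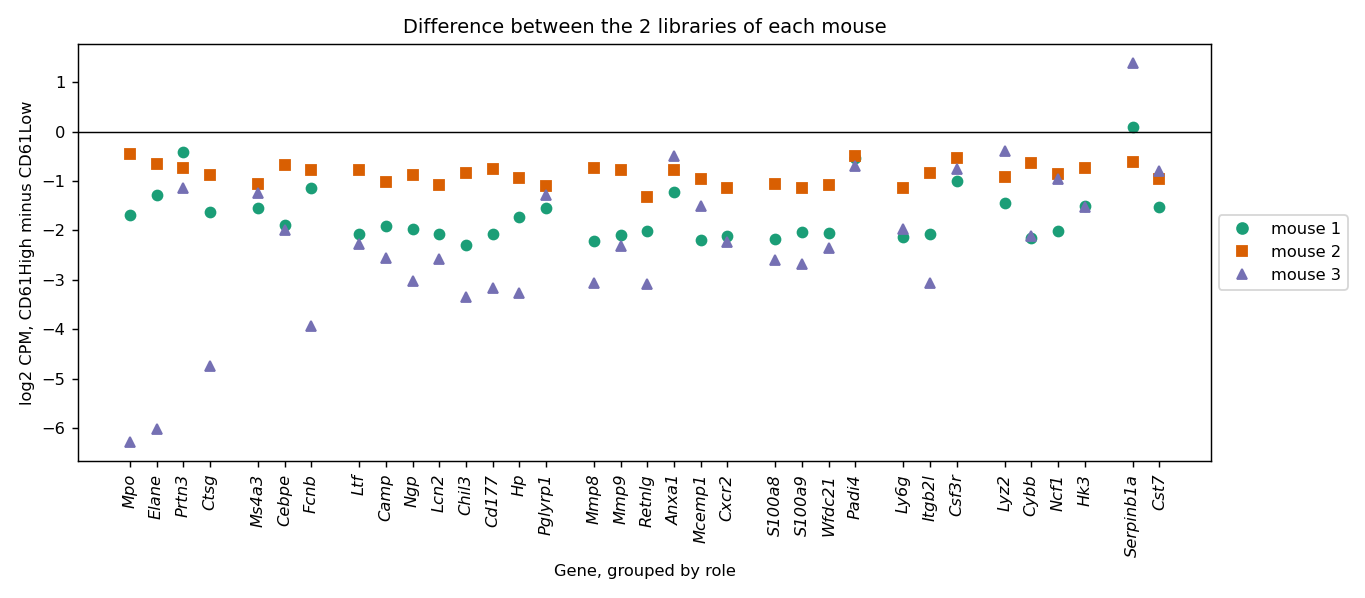
Difference in log2 CPM between the CD61High and CD61Low library of each mouse (y) for the 34 genes, grouped by role (x), with 1 point per mouse; values under 0 are lower in CD61High. Of the 34 genes, 33 lie under 0 in all 3 mice, Serpinb1a does not, and the medians are -1.93, -0.85 and -2.29 in mice 1, 2 and 3.

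Among the surface genes, Ly6g, the antigen by which mouse neutrophils are commonly sorted, had 10.7, 166 and 0.628 CPM in CD61High and 47.1, 369 and 2.68 CPM in CD61Low. Only 17 reads were in CD61High of mouse 3, and within each mouse CD61High was lower, with log2 differences of -2.13, -1.15 and -1.96. Csf3r, the receptor for granulocyte colony-stimulating factor, which stem and progenitor cells also express, had 138, 385 and 98.9 CPM in CD61High and 277, 555 and 167 CPM in CD61Low. Mouse 2 was the highest in both gates, but the range over libraries was 5.61-fold, and CD61Low of mouse 3 lay above CD61High of mouse 1. Itgb2l, an integrin beta chain, ran from 0.628 to 665 CPM. The blocked log2 fold changes were -1.73 (SE 0.24, adjusted p = 0.0512), -0.76 (SE 0.14, adjusted p = 0.0708) and -1.84 (SE 0.41, adjusted p = 0.0958) for Ly6g, Csf3r and Itgb2l. The 3 were called as lower without mouse 2 and not over all libraries.

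Genes that neutrophils share with monocytes and macrophages followed. Lyz2, which encodes lysozyme, had 1037, 8278 and 349 CPM in CD61High and 2839.8, 15759.7 and 457 CPM in CD61Low. Mouse 2 was the highest, and CD61High of mouse 3 held 9438 reads, the most per kilobase of the 34 genes in that library. Cybb, the catalytic subunit of the phagocyte NADPH oxidase, had 84.03, 1325 and 4.95 CPM in CD61High and 373, 2055 and 21.8 CPM in CD61Low. Its order of mice and gates was that of Ngp. The cytosolic oxidase subunit Ncf1 ran from 6.91 to 1034 CPM and Hk3, a hexokinase, from 43.5 to 565 CPM. Ncf1 shares 11.1% of its exon sequence with Gtf2ird2 and Hk3 0.923% with Unc5a. Blocked log2 fold changes were -0.93 (SE 0.25, adjusted p = 0.119) for Lyz2 and -1.63 (SE 0.34, adjusted p = 0.0883) for Cybb. Cybb and Hk3 were called as lower without mouse 2, Lyz2 and Ncf1 were not.

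Serpinb1a, an inhibitor of neutrophil serine proteases, was the exception in direction. It had 131, 599 and 151 CPM in CD61High and 124, 918 and 57.8 CPM in CD61Low. In mice 1 and 3 CD61High was the higher library and in mouse 2 the lower, with log2 differences of 0.08, -0.62 and 1.39. Its log2 fold change was -0.32 (SE 1.14, adjusted p = 0.964) without the block and 0.27 (SE 0.38, adjusted p = 0.726) with it, so its sign depends on the block. Cst7, the cysteine protease inhibitor cystatin F, ran from 0.775 to 76.7 CPM and was lower in CD61High in 3 of 3 mice. Neither was called with the block, with or without mouse 2, and both were called between mice.

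To see whether the genes kept their proportions as the total changed, each was set against Ngp per kilobase of exon. Over the 5 libraries other than CD61High of mouse 3, 20 of the 33 other genes stayed within a range of less than 2-fold of Ngp, while Ngp itself ran from 304 to 34532 CPM. Ltf was at 17.8% to 20.2% of Ngp, Itgb2l at 0.518% to 0.562% and Cd177 at 4.30% to 5.46%. Camp was at 44.5% to 57.7% and S100a8 at 138% to 203%. In these 5 libraries Mpo was at 2.98% to 4.92% and Elane at 8.03% to 12.9%. These ratios share Ngp as their denominator and are given as a description.

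CD61High of mouse 3, with the fewest neutrophil reads, had other proportions. There 5 of the 33 genes were within the range of the other 5 libraries, 5 were below it and 23 above it. Below were Mpo at 0.389%, Elane at 0.986%, Ctsg at 0%, Fcnb at 1.36% and Itgb2l at 0.477%. The 11 reads of Mpo have an exact Poisson 95% interval of 5.49 to 19.7 and the 8 of Elane one of 3.45 to 15.8, beside 1008 reads of Ngp. The lowest share in the other 5 libraries was 7.65-fold higher for Mpo and 8.15-fold higher for Elane. For Fcnb and Itgb2l below the range, with 15 and 17 reads, and for Cebpe and Ly6g above it, with 8 and 17 reads, the counting interval reached the range of the other libraries. Among those above, Prtn3 stood at 297% of Ngp against 1.78% to 80.7% elsewhere, Lyz2 at 869%, Serpinb1a at 216%, Anxa1 at 165%, Csf3r at 89.96% and Padi4 at 69.2%. With Hk3, these are the 7 genes whose highest and lowest libraries differed by less than 50-fold, a limit chosen after the values were seen. For 26 of the others the range was 93.9-fold to 7557-fold, and for Ctsg the lowest library was at 0. Ngp was lowest in CD61High of mouse 3, so a gene of narrow range stands high against Ngp there by construction. Over the highest share in another library, Cst7 (4.48-fold) and Ncf1 (4.16-fold) stood further above than Prtn3 (3.68-fold) and Hk3 (2.83-fold).

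**Figure D3:**
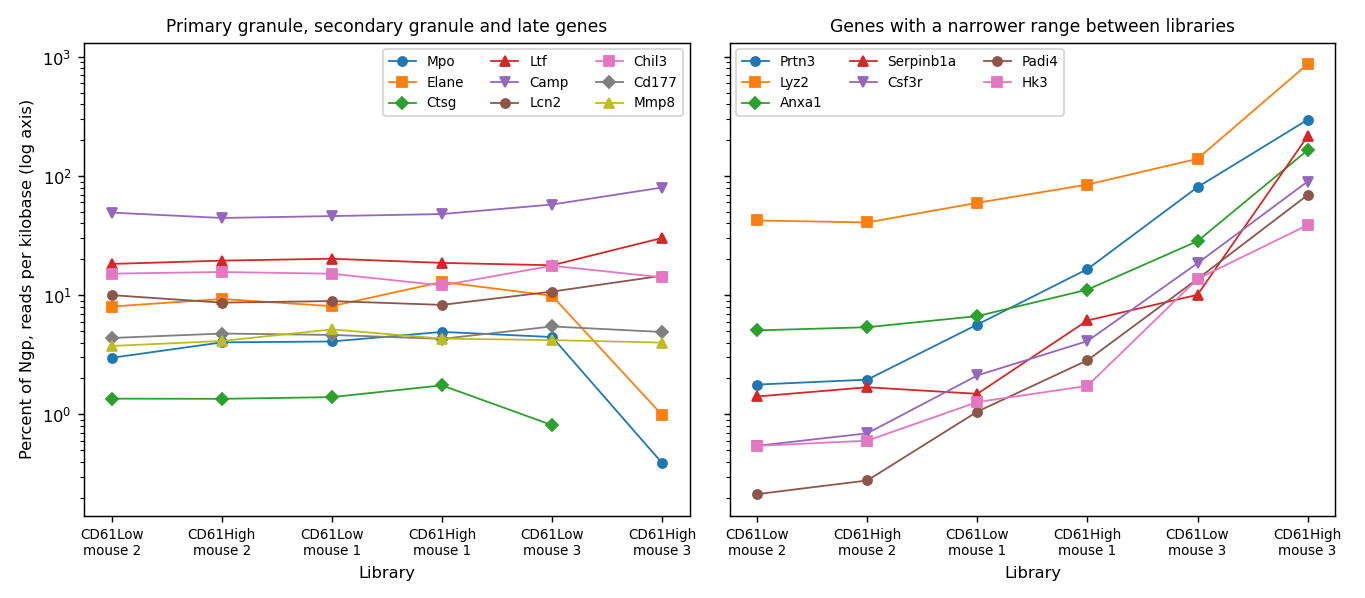
Level of named genes as a percent of Ngp per kilobase of exon, on a log axis (y), in each of the 6 libraries (x), with 1 line per gene; Ctsg at 0 in CD61High of mouse 3 is not drawn. Ltf stays at 17.8% to 20.2% in 5 libraries, while in CD61High of mouse 3 Mpo and Elane are at 0.389% and 0.986% and Prtn3 stands at 297%.

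**Figure D4:**
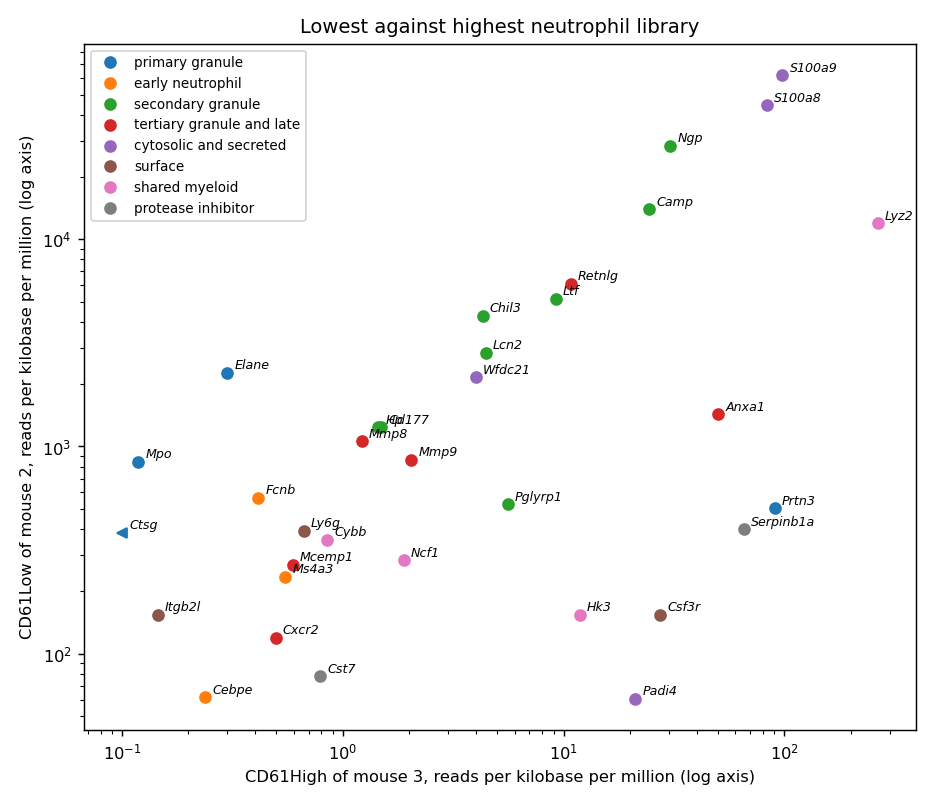
RPKM of the 34 genes in CD61Low of mouse 2 (y), the library with the most neutrophil reads, against CD61High of mouse 3 (x), the library with the fewest, both on log axes, with 1 point per gene; Ctsg, at 0 on the x axis, is a triangle at the left edge. Padi4, Prtn3, Csf3r, Hk3, Serpinb1a, Anxa1 and Lyz2 lie to the right of the other genes of their height, and Mpo and Elane to the left.

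The stages of granule formation were also compared by sums over the groups. The summed primary granule genes, per kilobase, were lower than the summed secondary granule genes in 5 of 6 libraries, with log2 ratios of -2.46, -3.58 and 0.16 in CD61High and -3.38, -3.85 and -1.20 in CD61Low. The ratio was higher in CD61High in each mouse, by 0.93, 0.27 and 1.36 (mean 0.85, SD 0.55, n = 3). The sign in mouse 3 rested on Prtn3: without it the differences were 0.55, 0.28 and -3.74, with a mean of -0.97. Against the tertiary and late genes the primary genes differed by 0.83, 0.46 and 0.13 (mean 0.47). The value in mouse 3 turned to -0.38 with sums of CPM (mean 0.21) and to -0.43 without the highest gene of each group (mean 0.19). The mean was -1.35 without Prtn3 and 1.02 without Anxa1. The log2 ratio of secondary to tertiary and late genes was 2.14, 2.74 and 0.32 in CD61High and 2.24, 2.55 and 1.55 in CD61Low. The low values in mouse 3 rested on Anxa1: without it, a choice made after the values were seen, the ratios were 2.55, 3.03 and 2.43 in CD61High and 2.48, 2.77 and 2.23 in CD61Low. No test was run on these sums.

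A further 40 genes of neutrophils and their precursors, among them transcription factors, receptors and oxidase subunits, were compared, and 38 passed the filter. Over all libraries 0 of the 38 were called between the gates, with or without the block. The all-gene shares were 0% without it and 0.256% with it. Between mice 34 of 38 were called, beside 16.8% of all genes. At an unadjusted p under 0.05 the blocked fit had 31 lower in CD61High and 0 higher, beside 12.8% of all genes lower. In the blocked fit without mouse 2, 11 were lower in CD61High and 0 higher, beside 2.93% of all genes lower. CD61High was below CD61Low in 3 of 3 mice for 30, beside 24.7% of all genes, and above it for 1. Gfi1, a transcription repressor of the neutrophil lineage that HSCs also express, had 11.9, 27.7 and 14.2 CPM in CD61High and 33.6, 54.05 and 43.04 CPM in CD61Low. Each CD61High library was below each CD61Low library for Gfi1, as also for Ctsc and Cd63 of this list. The share of all genes with such a separation was not counted. The blocked log2 fold change of Gfi1 was -1.35 (SE 0.19, adjusted p = 0.0512). Cebpd, a C/EBP factor, and Il1r2, the decoy receptor for interleukin 1, had blocked values of -1.18 (SE 0.17, adjusted p = 0.0517) and -1.02 (SE 0.16, adjusted p = 0.0605). On the other side, the proteoglycan gene Srgn had 999, 1008 and 879.7 CPM in CD61High and 798, 895 and 768 CPM in CD61Low and a blocked value of 0.23 (SE 0.14, adjusted p = 0.391). The serine protease gene Prss57 and the receptor gene Clec4e had 0.22 (SE 0.34, adjusted p = 0.759) and 0.09 (SE 0.24, adjusted p = 0.859). The genes Stfa1, Stfa2, Stfa3, Stfa2l1, Trem1 and Prok2 had 0 counts in CD61High of mouse 3. Stfa2 and Stfa3, which did not pass the filter, also had 0 in CD61Low of mouse 3, and Stfa2 in CD61High of mouse 1.

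The summed markers of other mature cells were also highest in mouse 2 in both gates, for each of 5 lists. The 12 monocyte and macrophage markers summed to 139, 1587 and 37.9 CPM in CD61High and 569.5, 3017 and 64.5 CPM in CD61Low, with all 12 detected in every library. The 10 erythroid markers summed to 946, 15281 and 546 CPM in CD61High and 2962, 35301 and 968 CPM in CD61Low, also with all detected. The 9 B lineage markers summed to 311, 2975 and 50.3 CPM in CD61High and 892, 4242 and 62.3 CPM in CD61Low. In all 3 lists mouse 2 was the highest and CD61High was below CD61Low in 3 of 3 mice. Pax5 was at 0 in CD61High of mice 1 and 3 and Igll1 in both libraries of mouse 3. The 8 eosinophil, basophil and mast cell markers summed to 31.3, 2419.9 and 10.97 CPM in CD61High and 606, 3070.2 and 4.43 CPM in CD61Low. This sum was higher in CD61High than in CD61Low of mouse 3, and Epx, Ear1, Prss34 and Ms4a2 were at 0 in 1 or 2 libraries each. The 8 T and NK cell markers summed to 135, 277 and 94.6 CPM in CD61High and 148, 398 and 109 CPM in CD61Low. Cd3g, Cd8a and Ncr1 were at 0 in CD61High of mouse 3, and Ncr1 also in CD61Low of that mouse. Of these 8, 7 were highest in mouse 2 in both gates, and Klrb1c, singled out after its values were seen, was lowest there, at 58.1, 21.1 and 34.9 CPM in CD61High and 78.2, 46.5 and 91.04 CPM in CD61Low. Called between mice were 12 of 12 monocyte, 10 of 10 erythroid and 9 of 9 B lineage markers. So were 7 of 8 eosinophil, basophil and mast cell and 5 of 7 tested T and NK cell markers, beside 16.8% of all genes. CD61High was below CD61Low in 3 of 3 mice for 10 of 12 monocyte, 10 of 10 erythroid and 6 of 9 B lineage markers. The same held for 4 of 8 eosinophil, basophil and mast cell and 5 of 7 T and NK cell markers. The share over all genes was 24.7%. At an unadjusted p under 0.05 the blocked fit had 9, 10, 8, 3 and 4 lower in that order, beside 12.8% of all genes. Over all libraries it called 0 in each list. What part the cells that carry these markers have in the values of the 34 genes was not tested.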

How the data were processed

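RNA of sorted LT-HSCs was sequenced in 6 libraries, CD61High and CD61Low of 3 mice. The authors deposited unnormalized counts of reads per gene, 1 table per library and 1 for the series, whose 17500 genes have a lowest summed count of 31. STAR 2.7, MultiQC and edgeR are named per the submitters' processing notes; for the build and the gene models, the sources used here give none. All 55450 identifiers match GENCODE M21 on GRCm38, which supplied symbols, coordinates and exon lengths. Per the labels' protocols, SMART-Seq v4 cDNA and Nextera XT libraries were made. The unstranded counts were used (49.9% to 50.0% of stranded counts were on the first strand), so reads over exons that overlapping genes share count as ambiguous. Reads naming no gene stayed out: unmapped 4.36% to 10.9%, multimapping 10.0% to 15.6%, outside genes 2.88% to 4.21% and ambiguous 3.55% to 4.37%.

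Genes were tested in edgeR 4.0.16 under R 4.3.3 (quasi-likelihood F-test, robust, TMM, filterByExpr by group, two-sided, Benjamini-Hochberg over the 15610 genes kept, called at an adjusted p under 0.05). The gate was tested without a block. The fit with the mouse as a block (2 residual degrees of freedom, fewer with a mouse left out) and DESeq2 1.42.0 were alternatives. The mouse was tested with the gate in the model. Libraries that share a mouse number in the titles were taken as 1 animal. Their deviations from the group means correlated at 0.236, 0.806 and 0.761, against -0.903 to 0.374 for different mice. The value of mouse 1, 0.236, lay below the highest value between different mice. The fits were tested on simulated data. The gate simulation held no mouse effect, so it cannot show how the fits behave with mouse differences as large as these. A prior count of 2 was added before log2 CPM, and standard errors come from the F statistic. No libraries agreed within sampling noise (over 15 pairs, chi-square divided by its degrees of freedom was at least 40.6). A count of 0 allows up to 3 counts; intervals cover counting error only.

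The genes and lists were chosen with earlier results of these data known. Values in every library are given for the primary granule and early genes, the 4 secondary and 3 tertiary or late genes of highest mean CPM, and S100a8, S100a9, Cxcr2, Csf3r, Ly6g, Lyz2 and Cybb. Pglyrp1, Padi4 and Serpinb1a were added after their values were seen. Of the 40 further neutrophil genes, the 3 per direction with the smallest blocked p are named.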

Additional observations from a re-analysis of the deposited data

How the results depend on the processing

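Over all libraries, the fit with the mouse as a block called 40 genes and 2 of the 34 where the fit without it called 0 and 0, moved the median log2 fold change of the 34 from -0.95 to -1.72, turned Serpinb1a to 0.27 and changed no other call among the 34. With relative log expression factors, chosen after seeing the data, the block called 88 genes and 4 of the 34 (median -1.74, Serpinb1a at 0.25), and with library sizes alone 0 (Serpinb1a at 0.36); the cause was not tested. DESeq2 without a block called 237 genes and 0 of the 34. Leaving out libraries or mice, with or without the block, the genes called between the gates ran from 0 to 742 and those of the 34 from 0 to 23, both highest with the block and without mouse 2 (median -2.21, Serpinb1a at 0.72), where the fit without the block called 133 genes. With the block, 7 genes were called without mouse 3, and Serpinb1a was at 0.38 without mouse 1. Without the block, the median of the 34 ran from -4.26 (without CD61High of mouse 2) to 1.33 (without CD61Low of mouse 2). With the block it was -1.58 without mouse 1, -2.21 without mouse 2 and -1.40 without mouse 3. Between mice, 608 genes and 10 of the 34 were called without the gate term, 4131 genes by DESeq2 (34 of the 34), and 1178 to 3865 genes and 23 to 33 of the 34 with a library left out. The primary to secondary ratio of the gates was -0.58 by medians of log2 values and -0.97 without Prtn3, and the primary to tertiary ratio -0.70 and -1.35, and 1.02 without Anxa1; with a mouse left out they ran from 0.60 to 1.14 and from 0.29 to 0.65. The signs and ranges that follow are from fits without the block. Without CD61Low of mouse 2, 31 of the 34 log2 fold changes turned to values above 0, and without CD61High of mouse 3 those of Mpo and Serpinb1a did. The ranges of the log2 fold change over these left-out libraries and mice were: Mpo -3.87 to 1.48, Elane -3.85 to 1.71, Ctsg -4.16 to 1.51, Ms4a3 -4.31 to 1.67, Cebpe -4.14 to 1.36, Fcnb -3.94 to 1.84, Ltf -4.44 to 1.46, Camp -4.48 to 1.43, Ngp -4.48 to 1.499, Lcn2 -4.70 to 1.44, Chil3 -4.81 to 1.51, Cd177 -4.51 to 1.51, Hp -4.39 to 1.57, Pglyrp1 -3.82 to 1.17, Mmp8 -4.34 to 1.20, Mmp9 -4.08 to 1.04, Retnlg -4.34 to 0.85, Anxa1 -2.92 to 1.07, Mcemp1 -4.59 to 1.36, Cxcr2 -4.39 to 0.98, S100a8 -4.63 to 1.27, S100a9 -4.59 to 1.30, Wfdc21 -4.65 to 1.42, Ly6g -4.63 to 1.25, Itgb2l -4.57 to 1.49, Lyz2 -3.20 to 0.97, Cybb -4.20 to 1.26, Ncf1 -4.04 to 1.15, Hk3 -2.48 to 0.0087, Serpinb1a -1.38 to 1.70, Cst7 -3.74 to 1.28. Prtn3 (-1.31 to -0.16), Padi4 (-0.90 to -0.26) and Csf3r (-1.49 to -0.09) kept their sign when libraries or mice were left out.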
